A study of Mus musculus with 16 samples.

Results

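The genes described here are 42 genes that type I interferon is known to induce or signal through, chosen by name: antiviral effectors, sensors of foreign nucleic acid, the 2 receptor chains, STAT and IRF transcription factors, and enzymes of the ISG15, ubiquitin and ADP-ribose systems. Of these, 41 had a row among the 27446 entries of the table, and all 41 were among the 14308 entries with enough counts to be tested. The other, Mx2, was not analysed here. The livers came from wild-type C57BL/6 mice. In the emodin group, 8 livers came from mice that received emodin, an anthraquinone found in rhubarb, into the stomach at 400 mg/kg for 3 weeks in 0.5% sodium carboxymethyl cellulose. In the vehicle group, 8 livers came from mice that received that carrier alone. Both groups carried the same genotype and had 7 days of acclimation before dosing. Age and sex were not given in the sources used here, and the labels do not say whether libraries stem from separate mice, so p-values measure the spread between these libraries, which may be technical.

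Type I interferons are secreted proteins that bind a receptor made of the chains IFNAR1 and IFNAR2. The receptor activates the kinases JAK1 and TYK2, which phosphorylate STAT proteins, and STAT2 joins IRF9 in the complex ISGF3. ISGF3 binds the interferon-stimulated response element before many genes whose products block viral replication, detect viral RNA or DNA, or damp the response, as USP18 does at the receptor. In the liver, both hepatocytes and immune cells such as Kupffer cells can respond to interferon.

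The response element was searched for as GAAA, any 2 bases and GAAA on both strands (TTTC, any 2 bases and TTTC where it lies on the opposite strand) in RefSeq windows of build GRCm38.p6, which is mm10, from 250 bases before to 50 after each gene start. A window was given for 33 of the 41 genes, and not for Dhx58, Ifi27, Oas2, Parp14, Parp9, Rtp4, Usp18 and Zbp1. The 200 bases before the start are printed for the leading effectors, for 2 pairs of close paralogs, and for Irf7, which had no match. They read 5′ to 3′ on the strand of the gene, with matches to the element in capitals.
Isg15, chr4:156200819-156201018, minus strand: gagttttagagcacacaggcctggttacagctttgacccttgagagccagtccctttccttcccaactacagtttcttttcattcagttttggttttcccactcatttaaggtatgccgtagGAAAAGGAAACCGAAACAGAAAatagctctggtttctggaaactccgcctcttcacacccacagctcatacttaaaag
Ifit1, chr19:34640689-34640888, plus strand: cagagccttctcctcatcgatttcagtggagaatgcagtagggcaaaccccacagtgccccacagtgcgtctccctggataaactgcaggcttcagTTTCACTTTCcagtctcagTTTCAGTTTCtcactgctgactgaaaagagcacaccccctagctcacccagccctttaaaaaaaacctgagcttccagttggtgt
Ifit3, chr19:34583329-34583528, plus strand: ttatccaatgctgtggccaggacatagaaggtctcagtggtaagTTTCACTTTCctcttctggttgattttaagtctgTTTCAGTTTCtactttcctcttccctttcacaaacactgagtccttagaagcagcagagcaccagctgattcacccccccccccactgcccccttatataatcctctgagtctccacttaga
Ifit3b, chr19:34607757-34607956, plus strand: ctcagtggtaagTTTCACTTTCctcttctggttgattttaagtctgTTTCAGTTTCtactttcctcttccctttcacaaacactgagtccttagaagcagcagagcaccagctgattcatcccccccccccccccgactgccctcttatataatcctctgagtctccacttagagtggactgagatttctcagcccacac
Rsad2, chr12:26456453-26456652, minus strand: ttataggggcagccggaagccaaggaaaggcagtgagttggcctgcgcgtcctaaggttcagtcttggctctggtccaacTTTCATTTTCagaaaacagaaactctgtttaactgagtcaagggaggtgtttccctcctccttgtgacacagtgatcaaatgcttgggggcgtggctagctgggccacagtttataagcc
Oas1a, chr5:120907526-120907725, minus strand: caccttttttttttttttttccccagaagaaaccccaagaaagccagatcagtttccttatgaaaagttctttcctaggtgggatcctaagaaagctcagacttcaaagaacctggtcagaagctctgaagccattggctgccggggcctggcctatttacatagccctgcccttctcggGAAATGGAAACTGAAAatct
Oas1g, chr5:120887614-120887813, minus strand: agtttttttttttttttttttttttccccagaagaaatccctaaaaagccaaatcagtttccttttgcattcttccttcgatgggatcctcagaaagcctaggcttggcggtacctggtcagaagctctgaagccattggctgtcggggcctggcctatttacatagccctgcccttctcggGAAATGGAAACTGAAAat
Irf7, chr7:141266425-141266624, minus strand: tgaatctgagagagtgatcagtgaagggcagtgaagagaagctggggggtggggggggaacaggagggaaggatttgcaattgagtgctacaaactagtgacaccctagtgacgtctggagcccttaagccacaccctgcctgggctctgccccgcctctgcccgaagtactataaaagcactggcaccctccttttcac
In Isg15 there were 3 overlapping matches, beginning 78, 72 and 66 bases before the start. Ifit3 and Ifit3b carried the same pair of matches with the same bases between them, beginning 156 and 122 bases before the start in Ifit3 and 188 and 154 in Ifit3b. Oas1a and Oas1g each had 2 overlapping matches close to the start, at 20 and 14 bases and at 18 and 12 bases. Ifit1 had 2, at 104 and 85 bases, and Rsad2 had 1 at 120 bases, all on the opposite strand. The element was present for 15 of the 33 genes (45.5%), against 3.99% of the 27025 genes with a window, or 3.44% of all 32851 windows. Since these genes were picked as known interferon targets, this share describes the choice of genes. The gamma-activated site, TTCNNNGAA, was present for 10 of the 33 (30.3%), against 9.55% of all genes with a window.

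The total per library was 28.3 to 48.2 M estimated counts, with a mean of 32.3 ± 3.16 M for vehicle and 38.6 ± 6.91 M for emodin livers (SD, n = 8; p = 0.035 by a two-sided exact permutation test). Hepatocyte markers were abundant in every liver. Alb, the albumin gene, made up 7.43% to 9.54% of the counts of vehicle livers and 4.31% to 7.47% of those of emodin livers, and it alone of the 8 markers was called lower. The 8 hepatocyte markers summed to 103000 to 132000 CPM in vehicle livers and to 59600 to 112000 CPM (TMM-scaled counts per M) in emodin livers. The sum was 77800, 59600, 83800 and 72500 CPM in emodin 2, 4, 5 and 8 and 97000 to 112000 CPM in emodin 1, 3, 6 and 7. Alb made up most of each sum. It was at 48400, 38200, 53800 and 53100 CPM in emodin 2, 4, 5 and 8 and at 65000 to 78600 CPM in emodin 1, 3, 6 and 7.

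Interferon-stimulated genes were higher with emodin as a group average, and nearly all of the rise was carried by emodin livers 2, 4, 5 and 8. The edgeR quasi-likelihood test with Benjamini-Hochberg adjustment called 29 of the 41 genes higher, against 7.70% of all tested entries, and 0 lower, against 5.47%. The 0 lower calls were also found with DESeq2, with array weights and in the rank-sum test. At an unadjusted edgeR p under 0.05, 36 genes were higher and 0 lower, and the share of all tested entries at that p was not counted. A rise of at least 2-fold was called for 25 genes, against 1.81% of all entries. The median log2 fold change of the 41 genes was 1.54, against 0.01 for all tested entries. In whole liver, a change in the number of cells of a type and a change in RNA per cell cannot be told apart. The count depended on the test. With limma and array weights, where emodin 8, 4 and 5 had the lowest weights (0.276, 0.376 and 0.455), 1 of the 41 genes was called higher (Irf7), against 6.44% of all entries, and the median was 0.58. The exact rank-sum test called 9 of the 41 higher, against 5.28% of all entries. With a replicate block 2 of the 41 were called higher, against 4.39%.

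**Figure D1:**
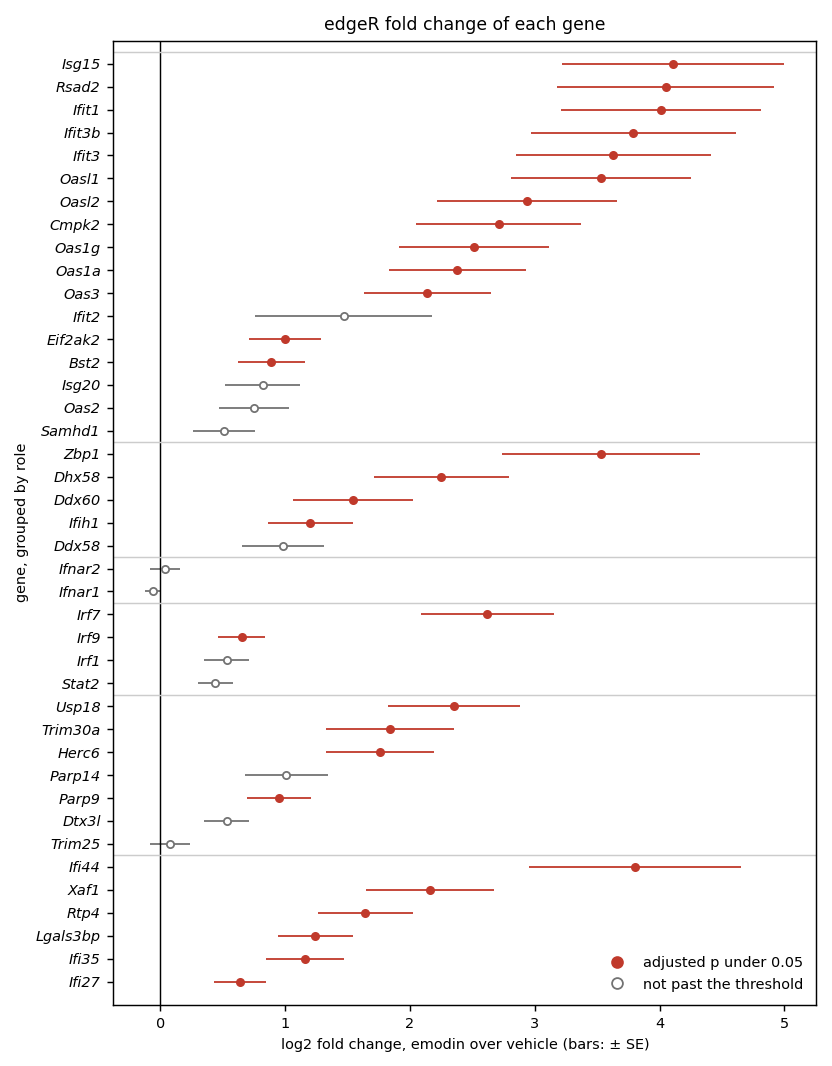
Log2 fold change (emodin over vehicle, edgeR) of each of the 41 genes on the horizontal axis, grouped by role, with bars of ± SE. Filled points are the 29 genes past the adjusted p threshold of 0.05; Isg15 has the largest value (4.11) and the receptor genes lie at 0.04 and -0.06.

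Seen liver by liver, emodin 2, 4, 5 and 8 stood apart and the other 4 emodin livers lay mostly within the vehicle range. The top of that range was set by vehicle 4 for 30 of the 41 genes. The number of genes above every vehicle liver was 37 of 41 in emodin 2, 38 in emodin 4, 38 in emodin 5 and 39 in emodin 8. The share of all tested entries above every vehicle liver was 23.9%, 26.4%, 24.5% and 26.8% in these livers. In emodin 1, 3, 6 and 7 the numbers were 8, 7, 3 and 3, against 14.1%, 15.2%, 18.6% and 13.4% of all entries. In emodin 1 and 3 the shares of the interferon genes were thus close to those of all entries, and in emodin 6 and 7 they were below them. At least 4 emodin livers lay above every vehicle liver for 35 of the 41 genes, against 18.3% of all entries, and for all 35 they included emodin 2, 4, 5 and 8, a pattern found in 8.24% of entries. For 20 genes these 4 livers and no other were above, as for 2.96% of all entries. No gene had 8 of 8 emodin livers above every vehicle liver, which held for 0.937% of entries.

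**Figure D2:**
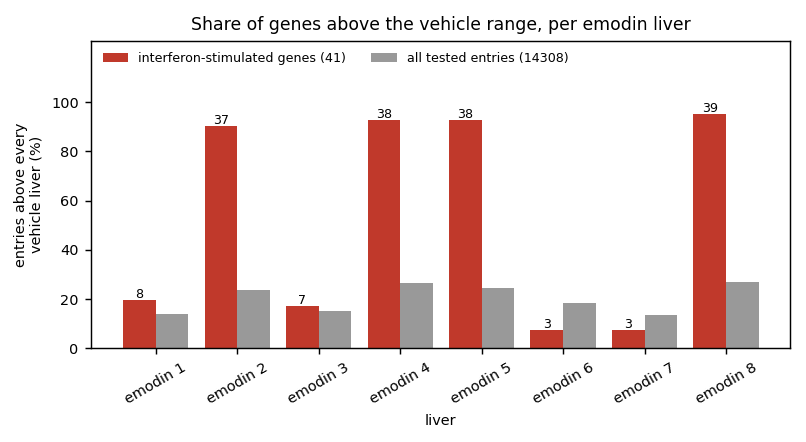
Percentage of entries above every vehicle liver in each emodin liver, for the 41 interferon-stimulated genes (red, with their number) and for all 14308 tested entries (grey). The red bars reach 37 to 39 genes in emodin 2, 4, 5 and 8 and 3 to 8 genes in the other livers.

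The median log2 ratio of the 41 genes to the vehicle mean was 0.17, 1.42, 0.14, 2.43, 2.18, 0.11, -0.02 and 2.79 in emodin livers 1 to 8. It was 0.43 in vehicle 4 and ran from -0.18 to 0.06 in the other vehicle livers. Emodin 1, 3 and 6 were thus above every vehicle liver but vehicle 4. Emodin 8 was highest and emodin 2 the lowest of the 4 raised livers. A level of at least 2-fold over the vehicle mean was reached by 24, 35, 34 and 36 genes in emodin 2, 4, 5 and 8 and by 0 in each other liver. The median log2 ratio of all tested entries was -0.03 to 0 in the emodin livers. The highest emodin level was in emodin 8 for 22 genes, in emodin 4 for 11, in emodin 5 for 6, and in emodin 1 and 6 for 1 each (the receptor genes Ifnar1 and Ifnar2). The SD of log2 CPM among livers had a median over the 41 genes of 0.27 in the vehicle group and 1.24 in the emodin group, against 0.21 and 0.30 over all tested entries. It was larger in the emodin group for 40 of the 41 genes (97.6%), all but Ifnar1, against 70.0% of entries.

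**Figure D3:**
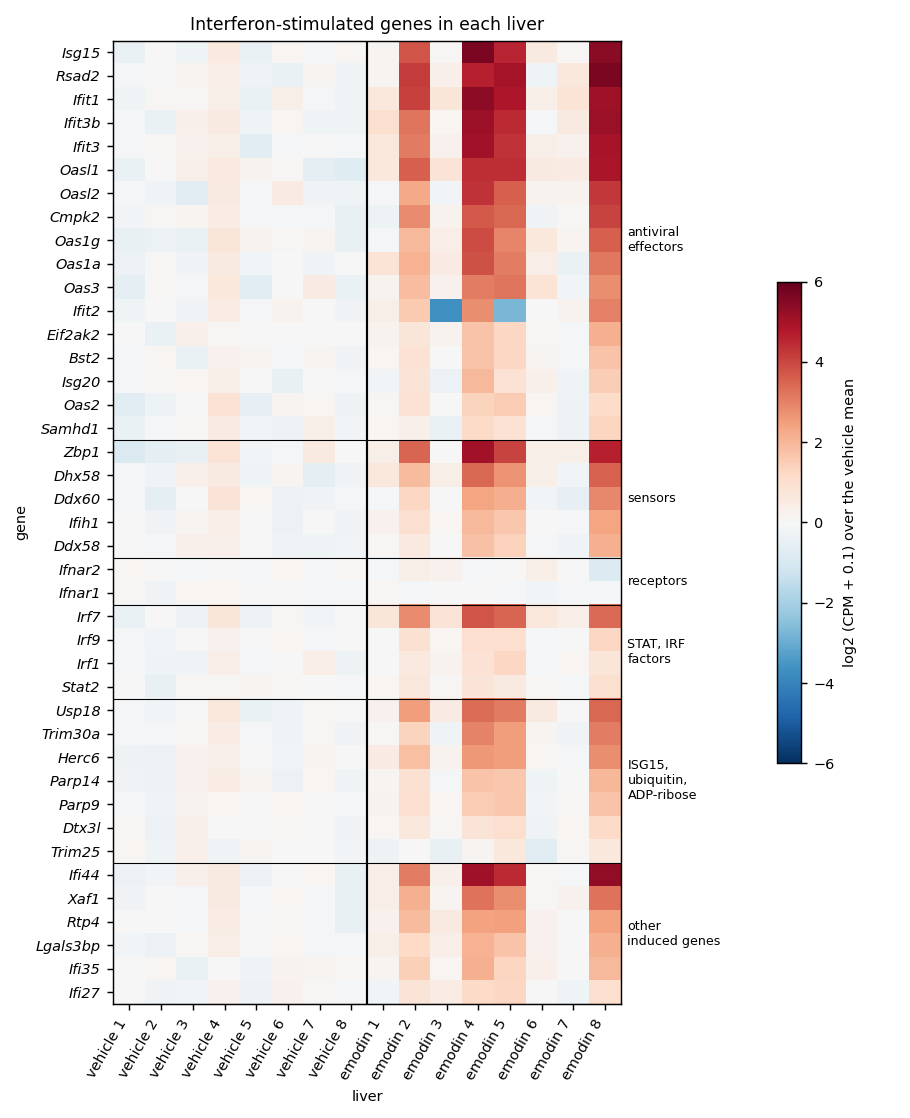
Log2 ratio of the level in each liver (columns) to the vehicle mean, for the 41 genes (rows, grouped by role), on TMM-scaled CPM with 0.1 added; red is higher and blue lower. Emodin 2, 4, 5 and 8 are red in nearly every row outside the receptors, while Ifit2 is blue in emodin 3 and 5.

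Library size did not set the raised livers apart, with 44.3, 38.6, 28.3 and 33.8 M counts in emodin 2, 4, 5 and 8 and 34.9, 46.0, 48.2 and 35.0 M in emodin 1, 3, 6 and 7. Markers of other cells moved with them in part. The summed level of 5 monocyte markers was 6.83 to 13.7 CPM in the vehicle livers and 15.1, 43.2, 27.0 and 26.8 CPM in emodin 2, 4, 5 and 8, against 7.33 to 9.18 CPM in the other emodin livers. Plac8 made up most of the sums of emodin 2, 4, 5 and 8, at 11.2, 29, 21 and 20.8 CPM. Ly6c2 was also above every vehicle liver in these livers, and Chil3 in emodin 4 and 8. Ccr2 was so only in emodin 4 and Itgam only in emodin 5. Of the 4 tested monocyte markers 0 passed in edgeR, and 2 were higher at an unadjusted p under 0.05. Of the 7 Kupffer cell markers 0 passed, also unadjusted, and 3 had a positive log2 fold change. Their sum was 539 CPM in vehicle 4, 121 to 251 CPM in the other vehicle livers and 183 to 495 CPM in emodin livers. Emodin 4, 5 and 6, at 357, 495 and 263 CPM, exceeded every vehicle liver but vehicle 4. Marco was at 54, 72.7 and 60.7 CPM in emodin 4, 5 and 8 and at 64.6 CPM in vehicle 4. In the other livers Marco was at 5.64 to 9.11 CPM (emodin) and 3.79 to 11.5 CPM (vehicle). The 6 neutrophil markers summed to 0.0621 to 2.43 CPM in vehicle livers and 0.4 to 5.21 CPM in emodin livers, with emodin 2, 4 and 5 above the vehicle range. The 4 bile duct markers summed to 4.2 to 8.54 CPM and 2.91 to 22.5 CPM, with emodin 2, 4 and 8 above. Most of the sum in those livers came from Sox9, at 8.18, 14.2 and 20.1 CPM. Log2 fold changes were positive for Sox9 (1.15) and Krt7 (0.24) and negative for Krt19 (-0.52) and Epcam (-0.32). None of the tested neutrophil and bile duct markers passed. T and NK cell markers summed to 4.17 to 21.2 CPM in vehicle and 2.45 to 7.43 CPM in emodin livers, with 0 of 7 passing and 4 lower at an unadjusted p under 0.05. Sinusoidal endothelial (120 to 181 and 107 to 169 CPM, Kdr lower) and stellate cell markers (162 to 289 and 135 to 236 CPM, 0 of 5 passing) did not exceed the vehicle range in any emodin liver. Siglech, the defining marker of plasmacytoid dendritic cells, was at 0.0659 to 0.569 CPM in vehicle and 0.107 to 0.764 CPM in emodin livers. The sum of their 5 markers was 0.198 to 47.3 and 0.601 to 13.4 CPM, with the highest values made up mostly of Cox6a2 in 1 liver each (46.7 CPM in vehicle 2 and 12.5 CPM in emodin 7). No marker on these lists was at 0 in all livers. The part of other cells in the rise was not tested.

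Of the 17 antiviral effectors 13 rose, against 7.70% of all tested entries, and 4 did not pass, with a median log2 fold change of 2.51. Isg15 encodes a ubiquitin-like protein that is attached to other proteins. Its level in emodin livers 1 to 8 was 5.35, 67.5, 5.14, 250, 117, 7.15, 5.01 and 208 CPM, against 3.63 to 7.33 CPM in the vehicle livers (median 4.65). Emodin 2, 4, 5 and 8 lay far above the vehicle range and the others within it. The log2 fold change was 4.11 ± 0.89 (SE), 17.3-fold (edgeR adjusted p = 0.00957). Ifit1, whose protein binds viral RNA that lacks the host cap methylation, had the smallest p of the 41. It was at 10.2, 113, 11.0, 278, 195, 8.31, 11.6 and 225 CPM in emodin 1 to 8 and at 4.94 to 8.53 CPM in the vehicle livers (median 6.48). Here 7 of 8 emodin livers were above every vehicle liver, all but emodin 6, although emodin 1, 3 and 7 were so by little. The log2 fold change was 4.01 ± 0.80 (edgeR adjusted p = 0.00674).

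Rsad2 encodes viperin, an enzyme that makes a chain-terminating nucleotide. Its level was 6.49, 108, 7.19, 150, 187, 4.85, 9.06 and 292 CPM in emodin 1 to 8, against 4.35 to 7.76 CPM in vehicle livers (median 5.61). The log2 fold change was 4.05 ± 0.87 (edgeR adjusted p = 0.00911), and emodin 7 joined the 4 raised livers just above the vehicle maximum. Cmpk2, its neighbour on chromosome 12 (26469204 to 26479837, with Rsad2 from 26442746 to 26456452 on mm10), encodes a mitochondrial nucleotide kinase and rose by 2.71 ± 0.66 on the log2 scale (edgeR adjusted p = 0.0173). Under array weights the log2 fold changes of Isg15, Ifit1, Rsad2 and Cmpk2 were the lowest of all alternatives, at 1.47, 1.77, 1.44 and 0.92, and none of these passed.

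**Figure D4:**
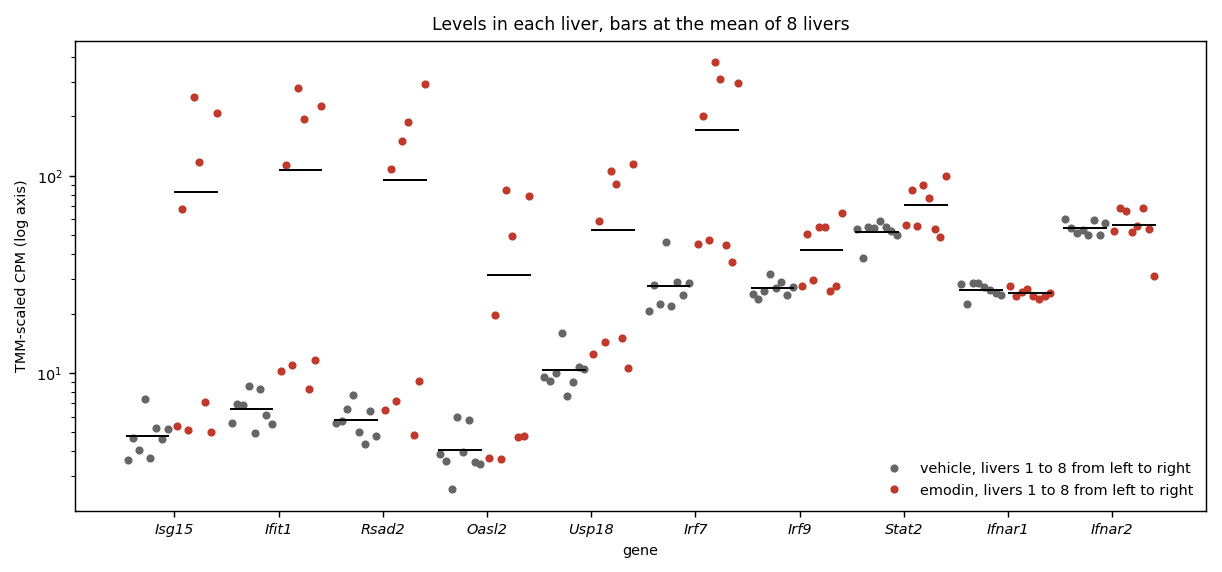
TMM-scaled CPM (log axis) of 10 genes in each of the 8 vehicle (grey) and 8 emodin (red) livers, ordered by liver number from left to right, with a bar at each group's mean. Isg15, Ifit1, Rsad2, Oasl2, Usp18 and Irf7 are split between emodin 2, 4, 5 and 8 and the other livers, Irf9 and Stat2 less widely, and Ifnar1 and Ifnar2 are not.

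The IFIT genes lie together on chromosome 19, from Ifit2 (34550694 to 34576419) through Ifit3 (34583531 to 34588731) and Ifit3b (34607970 to 34613401) to Ifit1 (34640871 to 34650009), and encode RNA-binding proteins. Ifit3 and Ifit3b rose by 3.63 ± 0.78 and 3.79 ± 0.82 on the log2 scale (edgeR adjusted p = 0.00921 and 0.00923), with 352 and 115 CPM in emodin 4 against at most 13.9 and 4.75 CPM in any vehicle liver. Their longest coding transcripts were 98.0% identical over 1697 aligned bases, and 31.7% of the 100-base windows of Ifit3 occurred unchanged in Ifit3b, so their values are uncertain one by one. Ifit2 departed from its neighbours. It was at 5.38, 12.5, 0.231, 30, 0.534, 4.18, 4.80 and 35.0 CPM in emodin 1 to 8, against 3.51 to 5.69 CPM in the vehicle livers. Emodin 3 and 5 were thus below every vehicle liver, although emodin 5 had 195 CPM of Ifit1 and 218 CPM of Ifit3. Ifit2 did not pass (1.47 ± 0.71, edgeR adjusted p = 0.183), and array weights turned its sign (-0.45).

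The OAS genes encode enzymes that make the second messenger 2-5A, which activates RNase L, and OASL proteins, which bind double-stranded RNA. Oasl2 was at 3.72, 19.7, 3.66, 84.9, 49.5, 4.74, 4.80 and 78.8 CPM in emodin 1 to 8 and at 2.57 to 5.99 CPM in the vehicle livers (median 3.71). Again emodin 2, 4, 5 and 8 were above the vehicle range and the others inside it (2.94 ± 0.72, edgeR adjusted p = 0.0175). Oasl1 rose by 3.53 ± 0.72 (adjusted p = 0.0074), Oas1g by 2.51 ± 0.60 (0.0143), Oas1a by 2.38 ± 0.55 (0.0125) and Oas3 by 2.14 ± 0.51 (0.0138). Oas1a and Oas1g share 97.5% of 1860 aligned bases, with 40.1% of the 100-base windows of Oas1a unchanged in Oas1g, and are uncertain one by one. Oas2 did not pass (0.75 ± 0.28, adjusted p = 0.0888). It was at 9.27 CPM in emodin 2, just under the 9.34 CPM of vehicle 4, and it passed without vehicle 4 (0.94) and without emodin 7 (0.86).

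Among the remaining effectors, Eif2ak2, the kinase PKR that halts translation on double-stranded RNA, rose 2.00-fold (1.00 ± 0.29, edgeR adjusted p = 0.0353), and Bst2, tetherin, which holds budding virus at the cell surface, rose 1.85-fold (0.89 ± 0.27, 0.0373). The exonuclease gene Isg20 had 0.82 ± 0.30 (0.0799) and Samhd1, whose enzyme breaks down deoxynucleotides, 0.51 ± 0.25 (0.174). Neither passed. Isg20 passed without emodin 1 (0.92), emodin 3 (0.95) or emodin 7 (0.93), and with DESeq2 (0.82, adjusted p = 0.0495, against 0.0781 to 0.554 in the other alternatives). Bst2 was the most abundant of the 41 genes per kilobase of merged exons in both groups, at 97.7 ± 15.6 CPM per kb in vehicle and 181 ± 96.0 in emodin livers (SD). Isg15 moved from the 11th to the 2nd place, from 6.35 ± 1.59 to 110 ± 131 CPM per kb, a mean set by emodin 2, 4, 5 and 8, since Isg15 lay within the vehicle range in the other livers. In the vehicle group Ifi27 came second (39.1 ± 5.72), and Trim25 (16.6 ± 2.35) and Ifnar2 (16.4 ± 1.21), the third and the fourth, did not differ beyond their spread.

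Of the 5 sensor genes 4 rose, against 7.70% of all tested entries. Zbp1, which detects Z-form nucleic acid and can start necroptosis, rose by 3.53 ± 0.79 on the log2 scale (edgeR adjusted p = 0.0115), with 58.4, 170, 86.2 and 132 CPM in emodin 2, 4, 5 and 8, against 5.11 to 6.49 CPM in the other emodin livers and 2.78 to 8.94 CPM in the vehicle livers. Dhx58, the regulatory helicase LGP2, rose by 2.25 ± 0.54 (0.0155), and the helicase gene Ddx60 by 1.54 ± 0.48 (0.0468). Ifih1, the long-RNA sensor MDA5, rose by 1.2 ± 0.34 (0.0317). Ddx58, the RNA sensor RIG-I, had 0.98 ± 0.33 and did not pass (0.0604). Its levels of 27.7, 61.4, 48 and 81.4 CPM in emodin 2, 4, 5 and 8 were nonetheless above the vehicle range of 15.5 to 22.4 CPM, and it passed without emodin 1, 3, 6 or 7 (1.07, 1.09, 1.1 and 1.1).

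The receptor genes did not pass. Ifnar1 was at 23.8 to 27.7 CPM (median 25.0) in emodin livers and 22.4 to 28.7 CPM (median 26.7) in vehicle livers, and 0 of 8 emodin livers lay outside the vehicle range (-0.06 ± 0.06, edgeR adjusted p = 0.555). Ifnar2 was at 52.7, 68.7, 66.0, 51.9, 55.9, 68.9, 53.5 and 30.9 CPM in emodin 1 to 8, against 50.1 to 60.2 CPM in the vehicle livers. Emodin 2, 3 and 6 were above that range and emodin 8 below it (0.04 ± 0.12, adjusted p = 0.862), an order unlike that of the induced genes. Its sign turned without emodin 2 (-0.01) and with library size as a covariate (-0.14).

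Among the transcription factors, Irf7, the factor that drives interferon gene expression and is itself induced, rose most and was the 1 gene of the 41 called in every alternative and without each liver. It was at 45.3, 200, 47.1, 377, 309, 44.7, 36.6 and 297 CPM in emodin 1 to 8 and at 20.6 to 46.2 CPM in the vehicle livers (median 26.3). Vehicle 4 alone set the top of that range, and the next vehicle liver was at 29.0 CPM. Emodin 1, 6 and 7 lay between these and emodin 3 just above vehicle 4, so all 8 emodin livers exceeded every other vehicle liver. The log2 fold change was 2.62 ± 0.53, 6.14-fold (edgeR adjusted p = 0.00687, from 1.18e-05 to 0.0329 over all alternatives), and it ran from 1.45 to 2.97.

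Of the ISGF3 genes, Irf9 passed, with 27.6, 50.4, 29.6, 54.9, 54.9, 25.9, 27.6 and 64.4 CPM in emodin 1 to 8 against 23.6 to 31.6 CPM in vehicle livers (median 26.5). Its log2 fold change was 0.65 ± 0.19 (edgeR adjusted p = 0.0311). The call was lost without vehicle 1, 2, 3, 5 or 7 (0.64, 0.62, 0.65, 0.65 and 0.63) and without emodin 2, 4, 5 or 8 (0.60, 0.58, 0.58 and 0.53). Stat2 had the smallest p of the genes that did not pass. It was at 56.0, 84.7, 55.5, 89.7, 76.8, 53.9, 48.9 and 100 CPM in emodin 1 to 8 and at 38.1 to 58.6 CPM in vehicle livers (median 53.9; 0.44 ± 0.14, adjusted p = 0.0506). The same 4 livers were above the vehicle range, and Stat2 passed without emodin 1, 3, 6 or 7 (0.48, 0.49, 0.50 and 0.51). Irf1, which interferon gamma also induces, had 0.53 ± 0.18 (0.0647), and passed without emodin 1, 6 or 7 (0.58, 0.61 and 0.58).

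Enzymes of the ISG15, ubiquitin and ADP-ribose systems rose in 4 of 7, against 7.70% of all tested entries. Usp18, which removes ISG15 from proteins and blocks IFNAR2 signalling, was at 12.5, 58.6, 14.3, 106, 91.3, 15, 10.6 and 114 CPM in emodin 1 to 8, against 7.67 to 15.9 CPM in the vehicle livers (median 9.80). The 4 raised livers were the same, and the other 4 lay within the vehicle range (2.35 ± 0.53, edgeR adjusted p = 0.0115). Herc6, the mouse ligase that attaches ISG15, rose by 1.76 ± 0.43 (0.0161), and Trim30a by 1.84 ± 0.51 (0.0293). Parp9 rose by 0.95 ± 0.26 (0.0282), while its binding partner Dtx3l had 0.53 ± 0.18 (0.0548) and Parp14 had 1.01 ± 0.33 (0.053). Parp9 and Dtx3l overlap on opposite strands of chromosome 16 (35938470 to 35972605 and 35926511 to 35939151), and whether counting used the strand is not given in the sources used here. Trim25, a ubiquitin ligase that acts with RIG-I, was at 62.0 to 147 CPM in emodin livers and 79.7 to 117 CPM in vehicle livers, with 2 emodin livers above and 3 below the vehicle range (0.08 ± 0.16, 0.794). Its sign turned without emodin 5 or 8 (-0.02 each) and with array weights (-0.20).

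The 6 remaining induced genes all rose, against 7.70% of all tested entries. Ifi44 rose by 3.80 ± 0.85 on the log2 scale (edgeR adjusted p = 0.0115), from 4.75 ± 1.21 to 65.9 ± 78.1 CPM (mean ± SD, n = 8), and Xaf1, a proapoptotic factor, by 2.16 ± 0.51 (0.0144). Rtp4 rose by 1.64 ± 0.38 (0.0135), Lgals3bp, a secreted glycoprotein, by 1.24 ± 0.30 (0.0156), and Ifi35 by 1.16 ± 0.31 (0.023). Ifi27, a mitochondrial protein, had the smallest called rise (0.64 ± 0.21), with 51.9, 97.2, 78.5, 128, 138, 58.8, 47.8 and 117 CPM in emodin 1 to 8 and 47.1 to 69.9 CPM in the vehicle livers (median 56.2). Emodin 2, 3, 4, 5 and 8 were above the vehicle range. The call stood at the threshold (adjusted p = 0.049996) and was lost without any 1 of the vehicle livers (0.61 to 0.69) and without emodin 2, 3, 4, 5 or 8 (0.62, 0.68, 0.55, 0.53 and 0.58).

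Of the 29 calls, 21 were kept without each of the 16 livers in turn. Beside Irf9 and Ifi27, the calls lost without 1 liver were those of Eif2ak2, Bst2, Ifih1, Ddx60, Trim30a and Parp9. Parp9 lost it without emodin 4, 5 or 8 (0.84, 0.82 and 0.80), and Trim30a without emodin 4 or 8 (1.56 and 1.52) and vehicle 1, 5 or 8 (1.83, 1.82 and 1.82). Ifih1 lost it without emodin 4, 5 or 8 (1.04, 1.12 and 0.91) and vehicle 1, 2, 5, 6, 7 or 8 (1.15 to 1.21). Eif2ak2 lost it without emodin 2, 4, 5 or 8 (1.04, 0.86, 0.96 and 0.73) and any vehicle liver but vehicle 3 (0.95 to 1.01). Bst2 and Ddx60 lost it without emodin 2, 4, 5 or 8 (0.89, 0.73, 0.83 and 0.73 for Bst2, 1.58, 1.36, 1.42 and 1.18 for Ddx60) and any vehicle liver but vehicle 4. Parp14 and Dtx3l passed without emodin 1, 3, 6 or 7 (1.1, 1.13, 1.14 and 1.13 for Parp14, 0.58, 0.59, 0.62 and 0.59 for Dtx3l).

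The 15 genes with a response element in their window had a median log2 fold change of 2.14, and 13 of them were called higher. The 18 genes with a window but no match had a median of 1.2, and 10 were called higher. Of all tested entries 7.70% were called higher. The 5 largest fold changes among genes with a window and a match were those of Isg15, Rsad2, Ifit1, Ifit3b and Ifit3, whose promoters are printed above. Large rises also occurred among genes with a window but no match. Ifi44 rose most of these (3.80), more than Ifit3b (3.79) and Ifit3 (3.63). It was followed by Oasl1 (3.53), Oasl2 (2.94), Cmpk2 (2.71) and Irf7 (2.62).

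**Figure D5:**
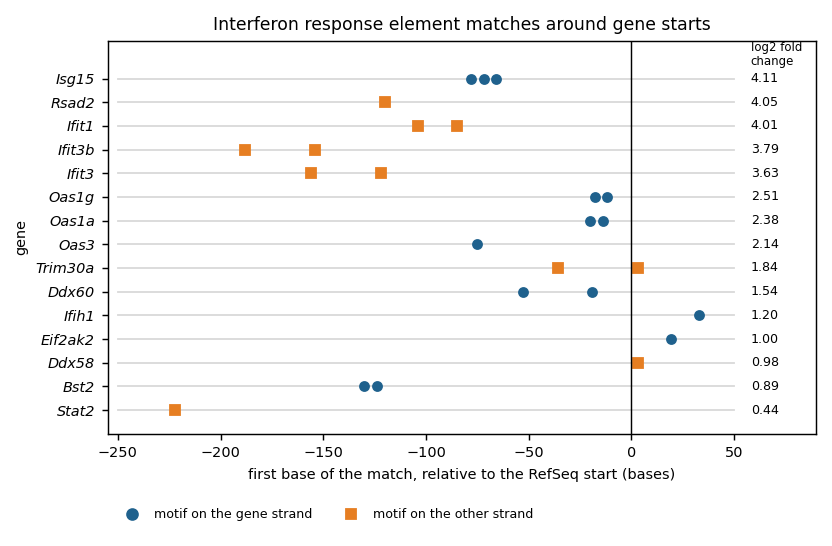
First base of each match to the interferon-stimulated response element (horizontal axis, bases from the RefSeq start) for the 15 genes with a match, ordered by log2 fold change (right), by strand of the motif. Isg15, with 4.11, is at the top and Stat2, with 0.44, at the bottom.

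The interferon ligand genes were at or near 0, apart from Ifnb1, which encodes interferon beta and was singled out after its values were seen. All 21 ligand genes had a row, 0 reached the edgeR test, and 14 had 0 counts in all 16 livers. Ifnb1 had 0 counts in each of the 8 vehicle livers and 0, 31, 0, 60, 9, 2, 0 and 207 counts in emodin livers 1 to 8. Its counts lay in emodin 2, 4, 5 and 8, with 2 more in emodin 6, and emodin 8 held most of them. Against a floor of 3 counts over the vehicle group (0.0118 CPM), the emodin group was at least 84.5-fold higher (0.993 CPM), or at least 31.9-fold without emodin 8. Ifnb1 did not pass after adjustment: the exact two-sided permutation p was 0.0256, or 0.179 when adjusted over the 7 ligand genes with a count, and the edgeR adjusted p with no filter on low counts was 0.103. Ifna4 had 0 counts in the vehicle group and 2, 3 and 5 in emodin 4, 5 and 8. Ifng, the type II interferon, had 11 counts in each group.

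Among other STAT genes, Stat3 rose (0.60 ± 0.16, edgeR adjusted p = 0.0216). Among inhibitors of interferon signalling 3 of 9 rose and 0 fell, against 7.70% and 5.47% of all tested entries. They were the feedback inhibitor gene Socs3 (1.54 ± 0.29, 0.00386), with 7 of 8 emodin livers above every vehicle liver, and Pias4 (0.41 ± 0.08, 0.00591) and the phosphatase gene Ptpn1 (0.49 ± 0.10, 0.00691), each with 8 of 8 above. Of 16 tested genes that act upstream of interferon production, 6 were higher and 0 lower at an unadjusted edgeR p under 0.05. The share of all tested entries at that p was not counted. The median log2 fold change of these 16 genes was 0.17. After adjustment 3 rose and 0 fell, against 7.70% and 5.47% of all tested entries. These were Tlr3, a receptor for double-stranded RNA (0.89 ± 0.20, 0.0107), Trex1, a DNA exonuclease (1.54 ± 0.41, 0.0225), and the adaptor gene Myd88 (0.45 ± 0.14, 0.047). With the replicate block the calls of Tlr3 (0.79, adjusted p = 0.0564) and Trex1 (1.21, 0.0636) were lost, and that of Trex1 also with array weights (0.81, 0.171) and in the rank-sum test (1.5, 0.128). The call of Myd88 was lost in 4 of 11 alternatives. It was also lost without any 1 vehicle liver (0.42 to 0.49) and without emodin 2, 4 or 5 (0.38, 0.42 and 0.34). Irf3, the factor that first switches on Ifnb1, was at 38.9 ± 2.28 CPM in vehicle and 39.4 ± 2.81 CPM in emodin livers (mean ± SD, n = 8; 0.02 ± 0.06, adjusted p = 0.862).

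Another 47 interferon-stimulated genes were tested, of which 26 rose and 0 fell, against 7.70% and 5.47% of all tested entries. Their median log2 fold change was 0.96. Those with the smallest p were Apol9a (1.53 ± 0.30, edgeR adjusted p = 0.00543), Ifitm1 (0.69 ± 0.15, 0.00688) and Ifitm3 (1.08 ± 0.23, 0.00692), the IFITM proteins being blocks to viral entry. Apol9a differed from the 41 genes in that all 8 emodin livers lay above every vehicle liver: it was at 59.0, 176, 66.0, 202, 212, 63.5, 62.2 and 186 CPM in emodin 1 to 8, against 37.0 to 54.6 CPM in the vehicle livers. Emodin 2, 4, 5 and 8 were again the highest. Ifitm3 was at 681, 796, 580 and 640 CPM in these 4 livers and at 263 to 362 CPM in the others, against 200 to 292 CPM in the vehicle livers. These 3 genes kept their call in every alternative and without each liver.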

How the data were processed

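The table that the authors deposited holds estimated counts per entry. FPKM stands in its name, but all values are whole and their totals differ between livers, as unscaled counts do. The submitters' processing notes list Cufflinks 2.2.1, HTSeq 0.6.1, HISAT2, cutadapt 1.9.1 and SAMtools 0.1.19 beside the build mm10. Their roles, the annotation and the handling of shared reads are not given in the sources used here. In every library more entries held the value 2 (632 to 751) than 1 (161 to 207), so 1 need not be 1 read, and intervals from counts cover counting error only.

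All 16 columns were used (8 vehicle, 8 emodin). Entries passing filterByExpr went into the quasi-likelihood F test of edgeR 4.0.16 under R 4.3.3 (TMM factors 0.929 to 1.16, robust fit, group as the single term), with Benjamini-Hochberg adjustment over 14308 entries and calls at 0.05. Rounding, which the count model needs, changed nothing. SE is the absolute log2 fold change over the square root of F. Levels are TMM-scaled CPM, and log2 ratios per liver add 0.1 CPM. On simulated data with the real means and library sizes (14164 entries), 89 of 100 changes of 1 and 97 of 100 changes of 2 on the log2 scale were recovered. The same change was applied to all 8 emodin livers there, and 9 unchanged entries were also called. These rates thus do not cover rises carried by only some of the emodin livers. Alternatives used DESeq2 1.42.0, limma 3.58.1 and others listed at the end. No 2 livers had identical columns.

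Coordinates and exon lengths are from GENCODE M21, where 41 of 41 genes matched by ID, and promoters from RefSeq on GRCm38.p6. The identity of paralogs was planned on proteins and was computed on GENCODE transcripts by local alignment. The genes and lists were chosen with earlier results of these data known, so no list was tested as a set. All genes of the list are accounted for; those with values in every liver were 10 genes fixed by role, the ones with the smallest p and the largest and smallest called change, and the uncalled one with the smallest p. From other lists, Irf3 and up to 3 called genes with the smallest p were named. Values by liver of Ifit2, Zbp1, Ddx58, Ifnb1, Apol9a and Ifitm3 were added after they were seen. Some planned results on other lists are not reported here.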

Additional observations from a re-analysis of the deposited data

Results flagged for a closer look

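In each group of 8 livers, a level was looked at again where the gap of the highest or lowest liver to its neighbour exceeded Dixon's 95% critical value as a share of the range. Of 108 such groups, each a gene in the vehicle or the emodin livers, 13 met this, where chance gives about 5%. In 9 of the 13 the liver was vehicle 4, the highest of its group: Isg15 (7.33 CPM, next 5.25), Oas1a (5.12, next 3.70), Oas1g (2.91, next 2.00), Oas2 (9.34, next 5.65), Ddx60 (9.77, next 6.13), Irf7 (46.2, next 29.0), Usp18 (15.9, next 10.7), Trim30a (11.6, next 8.89) and Ifitm3 (292, next 236 CPM). The other 4 were Ifnar2 in emodin 8 (30.9 CPM, the next lowest 51.9), Stat2 in vehicle 2 (38.1 CPM, the next lowest 50.1), Irf3 in vehicle 6 (44.0 CPM, next 39.9) and Ifnb1 in emodin 8 (5.27 CPM, next 1.38).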

How the results depend on the processing

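Under the 7 alternatives of scaling, filter, entries tested and DESeq2, between 23 and 36 of the 41 genes were called higher, with medians from 1.53 to 1.65, and with library size as a covariate 35 were (median 2.00). The replicate block left 2 calls (Irf7 and Lgals3bp), both over 2-fold. All entries called higher then numbered 628. Array weights left 1 call, over 2-fold, and the exact rank-sum test 9, all over 2-fold (Ifit1, Ifit3, Irf7, Oasl1, Usp18, Dhx58, Xaf1, Rtp4 and Lgals3bp). The cause was not tested. The calls of these 3 were all among the 29. For the replicate block, the labels do not say what a shared number stands for. The deviations of same-numbered livers correlated at r over 0.1 in 1 of 8 pairs (-0.15 to 0.25), that of vehicle 4 and emodin 4. Of the 8 emodin livers 2 correlated best with the vehicle liver of their own number. Without each liver in turn, 21 (without emodin 4 or 8) to 36 genes (without emodin 7) were called higher, with medians from 1.18 to 1.70. Genes with at least 4 emodin livers above every vehicle liver numbered 14 (without emodin 2 or 4) to 37, since fewer livers remain. Of all entries called higher there were 709 (without emodin 4) to 1333, and of all entries called lower 521 (without emodin 2) to 903. Signs turned for Ifnar2 (-0.14) and Irf3 (-0.03) with the covariate and for Ifit2 (-0.45) and Trim25 (-0.20) with array weights, and over left-out livers Ifnar2 ran from -0.01 to 0.13 and Trim25 from -0.02 to 0.17. Low counts limit the ligand genes, where differences of a few counts were not detectable.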

Other observations

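The vehicle livers differed among themselves in interferon-stimulated genes on a smaller scale. Vehicle 4 had the highest level of the 8 vehicle livers for 30 of the 41 genes (73.2%), against 14.4% of all tested entries, and its median log2 ratio to the vehicle mean was 0.43, with -0.18 to 0.06 in the other 7. No gene reached 2-fold over the vehicle mean there. The summed Kupffer cell markers were also highest in vehicle 4, at 539 CPM against 121 to 251 CPM in the other vehicle livers. Their part in the interferon gene levels of vehicle 4 was not tested. Vehicle 3 was the highest vehicle liver for 6 genes (14.6%, against 14.0% of all entries), and vehicle 2 and 8 for 0.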
